A study of Mus musculus with 6 samples.

Results

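The genes described here encode 10 cytokine receptor chains: those for IL-2 (Il2ra, Il2rb and Il2rg), IL-4 (Il4ra), IL-21 (Il21r), IL-7 (Il7r), IL-9 (Il9r) and IL-10 (Il10ra), the shared signal chain of the IL-6 family (Il6st) and the second chain of the IL-4 and IL-13 receptor (Il13ra1). They were taken by gene symbol, and all 10 were found among the 23850 gene entries of each library's table. Messenger RNA had been sequenced from wild type C57BL/6J germinal centre B cells made in culture, in 3 libraries given CHIR99021, an inhibitor of the kinase GSK3, and 3 given only its solvent, DMSO. All 6 cultures began as naive follicular B cells grown over CD40L feeders, first with IL-4 (1 ng/ml, 4 days) and then, during the 36 h of treatment, with IL-21 (10 ng/ml). CHIR99021 was given at 3 uM, and the labels print the same concentration beside DMSO. The series calls the replicates biological, but the sources used here do not say which mice they came from, so p-values measure the spread between these cultures. Across genes, log2 levels correlated at 0.970 to 0.980 within groups and 0.942 to 0.967 between them. Such correlations rest mostly on differences between genes. Libraries of the same replicate number varied together, as described below.

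Cytokine receptors of this family have no kinase of their own. Each binds its cytokine with a specific chain, pairs it with a shared chain, and signals through JAK kinases bound to the chains, which phosphorylate STAT transcription factors. Il2rg encodes the common gamma chain, which serves the receptors for IL-2, IL-4, IL-7, IL-9, IL-15 and IL-21. In germinal centre B cells, IL-4 (mainly through STAT6) and IL-21 (mainly through STAT3) from helper T cells are the best known of these signals. Both cytokines were supplied to these cultures, and what was measured is the messenger RNA of their receptors.

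With CHIR99021, the receptor chains for both supplied cytokines fell: Il4ra was 2.37-fold lower, Il21r 1.73-fold lower, and the common gamma chain Il2rg 1.61-fold lower. Il10ra also fell, by 1.80-fold, and Il2ra, the high-affinity chain of the IL-2 receptor, rose 4.89-fold. Levels are FPKM (fragments scaled for transcript length and library total), and folds are ratios of mean FPKM. The test was limma's on log2(FPKM + 1) over the 10096 genes with a mean of at least 1 FPKM. It had Benjamini-Hochberg adjustment and a threshold of 0.05, and it did not use the replicate number. Calls are from this fit unless the replicate number is named as a block. Of the 10 genes, 8 reached that mean; 1 of these was called higher and 4 lower, while 21.4% of all tested genes were called, 8.13% higher and 13.3% lower. The median log2 change of the 8 genes was -0.60, and that of all tested genes was -0.04. In bulk samples like these, fewer cells of a type and less RNA per cell cannot be told apart.

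Markers of the cells concerned give the setting of these values. All 6 B cell markers, among them Cd79a, Cd79b, Ms4a1 and Pax5, were called lower with CHIR99021, with their sum at 2579 to 3433 FPKM in DMSO and 1281 to 1522 FPKM in CHIR99021 libraries. They fell together with Il4ra, Il21r, Il2rg and Il10ra, and their part in those falls was not tested. Of 7 germinal centre markers, 1 was called lower, Fas (31.9 ± 1.67 to 25.2 ± 1.46 FPKM), beside 13.3% of all tested genes called lower. With the replicate number as a block, Bcl6, the master regulator of these cells, was also called lower (7.18 ± 2.23 to 4.55 ± 1.72 FPKM, limma adjusted p = 0.00307) and Gcsam higher (0.963 ± 0.331 to 1.77 ± 0.331 FPKM, 0.0189). The block called 24.4% of all tested genes lower and 18.4% higher. Markers of T cells, which carry IL-2 and IL-7 receptors, summed to 2.92 to 7.31 FPKM over 9 genes with DMSO and 1.64 to 4.15 FPKM with CHIR99021, with Cd3e and Cd8b1 at 0 in all libraries. Within each replicate number that sum was lower in the CHIR99021 library. Most of it was Lat, called lower (limma adjusted p = 0.0457), and Cd40lg, and the other markers went both ways. Cd3g in replicate 3 was higher with CHIR99021 (0.268 to 0.296 FPKM). So were Cd247 (0 to 0.0957 FPKM) and Cd4 (0.0319 to 0.0355 FPKM) in replicate 2 and Cd8a (0 to 0.0338 FPKM) in replicate 1. Cd3d, Cd3g, Cd247 and Cd4 were lower in replicate 1, as was Cd4 in replicate 3. The cultures were grown over CD40L feeders, and Cd40lg was highest in replicate 1 and lowest in replicate 3 of both groups. The part of feeder RNA in Cd40lg and the part of T cells in the Il2ra values were not tested. Markers of NK cells, which carry Il2rb, summed to 1.78 to 3.85 FPKM with DMSO and 2.03 to 3.44 FPKM with CHIR99021 over 6 genes. Ncr1, Klrb1c, Klre1 and Gzma were at 0 in all libraries. With DMSO the sum was Prf1 alone, and Klrd1 was at 0 with DMSO and at 0.409, 0.264 and 0 FPKM with CHIR99021. The 8 myeloid markers summed to 6.71 to 8.05 FPKM with DMSO and 2.52 to 7.09 FPKM with CHIR99021. Of 2 myeloid markers tested, 1 was called lower, Itgam (5.34 ± 0.791 to 1.42 ± 0.525 FPKM, limma adjusted p = 0.00264). S100a8 was at 0 with DMSO and at 1.68, 2.08 and 0 FPKM with CHIR99021.

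Il4ra and Il21r are neighbours: Il4ra (chromosome 7, 125552282 to 125579474, mm10) ends 23954 bases before Il21r begins (125603429 to 125633570), and both are read in the same direction. The 250 bases before the start sites of these neighbours and of Il2ra, the gene that rose, are shown so that the starts of the genes with opposite changes can be compared. Sequences are from RefSeq on GRCm38.p6 (the mm10 build), 5′ to 3′ on the gene's own strand, which is the plus strand for all 3, and capitals mark CpG dinucleotides. For Il4ra and Il21r the bases just after the start were found near the start of a GENCODE M21 transcript. For Il2ra they were not, so its start site is less certain.
Il4ra chr7:125552021-125552270: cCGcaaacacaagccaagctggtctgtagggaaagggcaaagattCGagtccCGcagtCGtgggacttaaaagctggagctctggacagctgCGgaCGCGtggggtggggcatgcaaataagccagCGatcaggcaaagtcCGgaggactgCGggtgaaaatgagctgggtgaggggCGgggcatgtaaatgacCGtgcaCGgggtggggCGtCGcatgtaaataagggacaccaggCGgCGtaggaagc
Il21r chr7:125603179-125603428: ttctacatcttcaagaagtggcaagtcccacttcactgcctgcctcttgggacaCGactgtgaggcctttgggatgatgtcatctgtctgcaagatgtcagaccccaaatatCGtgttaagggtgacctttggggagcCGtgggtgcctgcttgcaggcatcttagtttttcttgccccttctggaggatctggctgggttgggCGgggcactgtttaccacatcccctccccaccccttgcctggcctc
Il2ra chr2:11642542-11642791: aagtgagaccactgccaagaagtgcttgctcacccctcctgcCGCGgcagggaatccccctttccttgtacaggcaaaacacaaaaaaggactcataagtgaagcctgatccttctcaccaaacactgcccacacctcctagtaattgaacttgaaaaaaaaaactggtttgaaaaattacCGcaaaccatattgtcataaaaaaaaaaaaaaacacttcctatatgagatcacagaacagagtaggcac
The Il4ra window holds 17 CpG and is 59.6% G or C, whereas the Il21r window holds 4 CpG (55.6%) and the Il2ra window 3 (42.4%). Across 32851 mouse promoter windows of this length the median was 6 CpG, with quartiles at 2 and 16. The neighbouring genes that fell thus have unlike CpG counts. Windows of other receptor genes held 3 CpG (Il2rg), 1 (Il7r), 5 (Il9r), 26 (Il6st) and 21 (Il13ra1), and any relation of CpG to the changes was not tested.

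RefSeq windows were found for 8 of the 10 genes, all but Il2rb and Il10ra, and both strands were searched for 4 motifs. The STAT palindrome TTCNNNGAA was found in the Il7r window only, as TTCAGGGAA from 142 to 134 bases before the start. This palindrome occurs in 7.0% of all windows. For Il7r and Il13ra1, as for Il2ra, the bases just after the start were not found near the start of a GENCODE M21 transcript. The form of this palindrome with 4 bases between its arms (5.9% of all windows) and the TCF/LEF core CTTTGA (13.8%) were found in none of the 8. The octamer ATGCAAAT, the element bound by OCT factors in many B cell genes, lies in the Il4ra window from 139 to 132 bases before the start, against 1.6% of all windows; this motif was added after the sequence had been seen. No window held more than 1 match, so motifs could not share letters. A match is a description of the letters, and binding was not measured.

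**Figure D1:**
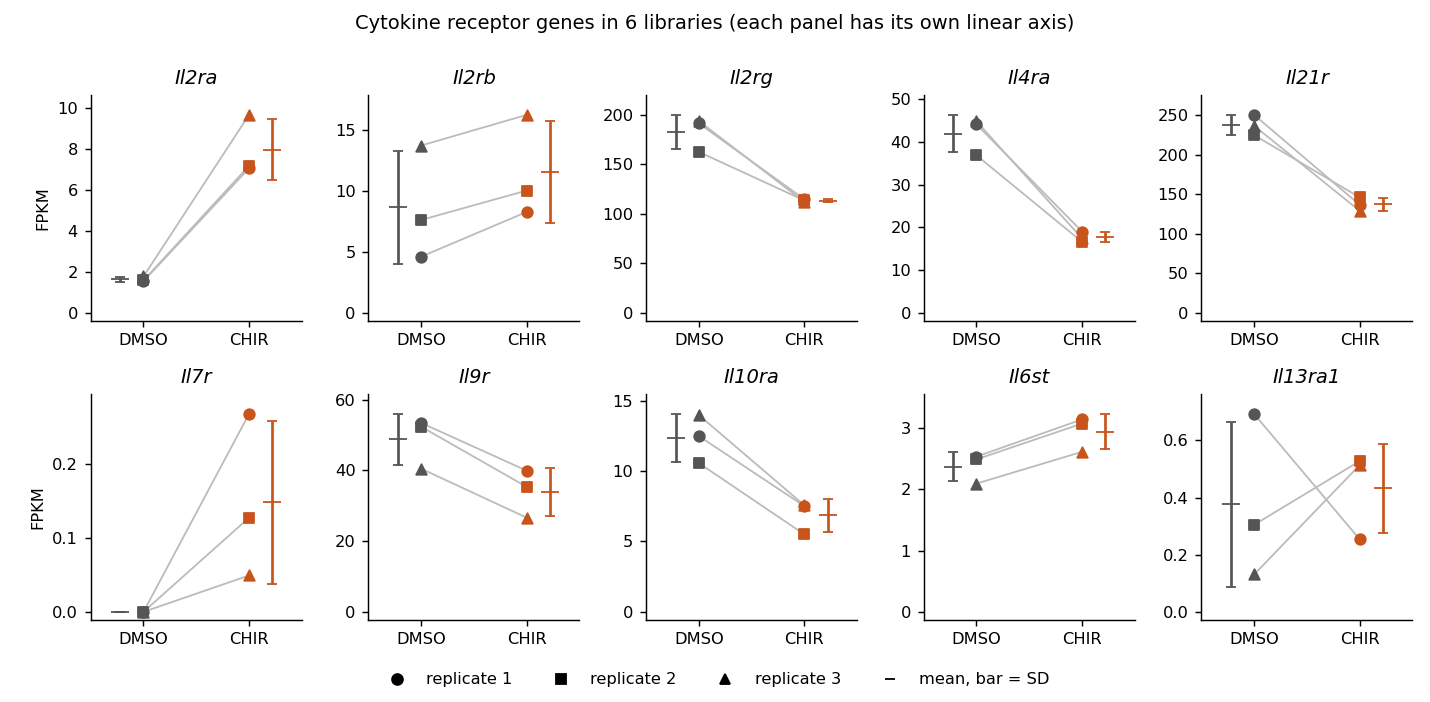
FPKM of the 10 receptor genes (vertical, linear, its own scale in each panel) in DMSO and CHIR99021 libraries; symbols give the replicate number, grey lines join libraries of the same number, and bars are the mean with SD (n = 3). Il2ra, Il6st and, near 0, Il7r lie higher in all 3 CHIR99021 libraries than in any DMSO library. Il2rg, Il4ra, Il21r, Il9r and Il10ra lie lower in all 3, while Il2rb differs more between numbers than between treatments.

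Il4ra encodes the chain that binds IL-4. Its level was 44.2, 36.9 and 44.9 FPKM in DMSO replicates 1, 2 and 3 and 19.0, 16.6 and 17.4 FPKM in CHIR99021 replicates 1, 2 and 3. Every CHIR99021 library lay below every DMSO library, and the means were 42.0 ± 4.41 and 17.7 ± 1.23 FPKM (SD, n = 3). The log2 change was -1.20 ± 0.11 (SE, limma adjusted p = 0.000549), the largest fall among the 8 tested receptor genes. GENCODE M21 places an antisense gene, Gm44876, within the Il4ra span; whether counting used strand is not stated, so its reads cannot be told apart from those of Il4ra.

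Il13ra1 encodes the chain that joins IL4RA in the second form of the IL-4 receptor, outside the common gamma chain. It was low throughout, at 0.692, 0.305 and 0.131 FPKM with DMSO and 0.254, 0.527 and 0.513 FPKM with CHIR99021. The groups overlapped, and the gene stayed below the level needed for testing. Without that limit its log2 change was 0.07 (limma adjusted p = 0.840).

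Il21r (IL-21 receptor) had the highest level of the 10 genes in both groups. Its values were 251, 225 and 237 FPKM with DMSO and 137, 146 and 129 FPKM with CHIR99021. The groups were far apart relative to their spread, with means of 237 ± 12.8 and 137 ± 8.55 FPKM. The log2 change was -0.79 ± 0.08 (SE, limma adjusted p = 0.00107).

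Il2rg (chromosome X, 101264387 to 101268206), the shared gamma chain, followed Il21r in level. Its values were 191, 162.5 and 194 FPKM with DMSO and 115, 113 and 112 FPKM with CHIR99021. The treated libraries were close together, all below the lowest DMSO library, with means of 183 ± 17.4 and 113 ± 1.33 FPKM. On the log2 scale it changed by -0.68 ± 0.09 (SE, limma adjusted p = 0.00234). GENCODE M21 has a further protein-coding model, Gm20489, with an exon on the same strand within the Il2rg span, whose reads the deposited values may not separate.

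Il2ra (chromosome 2, 11642792 to 11693194) encodes CD25, the chain that gives the IL-2 receptor its high affinity and is induced on activated lymphocytes. It had 1.55, 1.58 and 1.77 FPKM with DMSO and 7.07, 7.19 and 9.68 FPKM with CHIR99021. All treated libraries were several times above all controls, and the spread within each group was small beside that gap (1.63 ± 0.123 and 7.98 ± 1.47 FPKM). The log2 change was 1.76 ± 0.15 (SE, limma adjusted p = 0.000546). Its size depended on the pseudocount because the DMSO level is low, at 2.21 with a pseudocount of 0.1 and 0.96 with 5, and the gene was called with both. Read as 2 Poisson SDs, the deposited confidence limits correspond to 39, 55 and 53 fragments with DMSO and 285, 225 and 262 with CHIR99021.

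Il2rb (chromosome 15, 78480549 to 78495066) encodes the signalling chain shared by the receptors for IL-2 and IL-15. Its values were 4.61, 7.62 and 13.7 FPKM with DMSO and 8.28, 10.04 and 16.3 FPKM with CHIR99021. The groups overlapped, because replicate 3 was the highest and replicate 1 the lowest in each group. Its log2 change was 0.44 (95% interval -0.40 to 1.27), and limma did not call it (adjusted p = 0.434). Within replicate numbers 1, 2 and 3 the log2 ratio of FPKM was 0.85, 0.40 and 0.24, and with the replicate number as a block Il2rb was called higher (interval 0.17 to 0.70, adjusted p = 0.0194). Without DMSO replicate 1 the unblocked log2 change was 0.10, without DMSO replicate 3 it was 0.80 and without CHIR99021 replicate 3 it was 0.18, none of them called.

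Il9r (chromosome 11, 32188997 to 32200279), the specific chain of the IL-9 receptor, was the third highest of the 10 genes. Its values were 53.4, 52.4 and 40.5 FPKM with DMSO and 39.9, 35.3 and 26.6 FPKM with CHIR99021. The groups did not overlap, but DMSO replicate 3, the lowest control, lay close to the highest treated library; replicate 3 was also the lowest treated library. On the log2 scale it changed by -0.52 (95% interval -0.90 to -0.13, limma adjusted p = 0.0632), which did not pass. With the replicate block it was called lower (interval -0.67 to -0.36, adjusted p = 0.00117), as it was without CHIR99021 replicate 1 (0.0479).

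Libraries of one number differed from the other numbers in more than these genes. The summed level of 6 fibroblast genes listed as markers of feeder cells (Col1a1, Col1a2, Col3a1, Dcn, Pdgfrb and Fn1) was 296, 102 and 54.5 FPKM in DMSO replicates 1, 2 and 3 and 231, 87.1 and 47.4 FPKM in CHIR99021 replicates 1, 2 and 3. The sum was highest in replicate 1 and lowest in replicate 3 of both groups, which is the reverse of the Il2rb order and the same as the Il9r and Il6st orders. With the replicate block, 3 of the 4 of these genes that were tested were called lower with CHIR99021, beside 24.4% of all tested genes. The part of feeder RNA in these differences was not tested. No source used here names the type of the feeder cells.

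Il7r (chromosome 15, 9506159 to 9529876), the IL-7 receptor chain of B cell progenitors and T cells, was listed at 0 in all 3 DMSO libraries. The CHIR99021 libraries had 0.268, 0.128 and 0.0494 FPKM, which the confidence limits equate with 8, 3 and 1 fragments. Such values are near the limit of what these libraries could detect, the gene was too low to be tested, and no fold is given. Without the limit on level its log2 change was 0.20 (limma adjusted p = 0.146). Markers of B cell progenitors were also near 0, with Igll1, Rag2 and Vpreb2 at 0 in all 6 libraries and the sum of 6 markers at most 0.249 FPKM.

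Il10ra (chromosome 9, 45253839 to 45269146) encodes the ligand-binding chain of the IL-10 receptor, whose other chain is Il10rb. Its values were 12.5, 10.6 and 14.0 FPKM with DMSO and 7.51, 5.50 and 7.56 FPKM with CHIR99021. The treated libraries all lay below the controls, with means of 12.3 ± 1.71 and 6.86 ± 1.18 FPKM. On the log2 scale it changed by -0.77 ± 0.15 (SE, limma adjusted p = 0.0118), but without DMSO replicate 3 the call was lost (-0.68, adjusted p = 0.0512). GENCODE M21 has a miRNA gene and a pseudogene (Mir7086 and Gm20612) within the Il10ra span and an unclassified gene (Gm37881) within that of Il2ra.

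Il6st (chromosome 13, 112464070 to 112506860) encodes gp130, through which IL-6 and its relatives signal. It had 2.53, 2.49 and 2.09 FPKM with DMSO and 3.14, 3.07 and 2.61 FPKM with CHIR99021. The treated libraries all lay above the controls, by a margin smaller than the spread within a group. The log2 change of 0.23 (95% interval -0.10 to 0.55) was not called by limma with or without the replicate block (adjusted p = 0.124 and 0.2999).

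The groups did not overlap for 7 of the 8 tested receptor genes, 2 higher (Il2ra and Il6st) and 5 lower, against 40.1% of all tested genes. All 8 moved in 1 direction in 3 of 3 replicate numbers, against 66.6% of all tested genes. With the replicate block, 2 were called higher and 5 lower, and 42.8% of all tested genes were called, 18.4% higher and 24.4% lower. Higher calls made up 37.9% of all calls with FPKM as deposited, 48.7% after upper-quartile scaling and 51.2% after quantile scaling; the receptor calls were 1 higher and 4 lower under each of these.

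**Figure D2:**
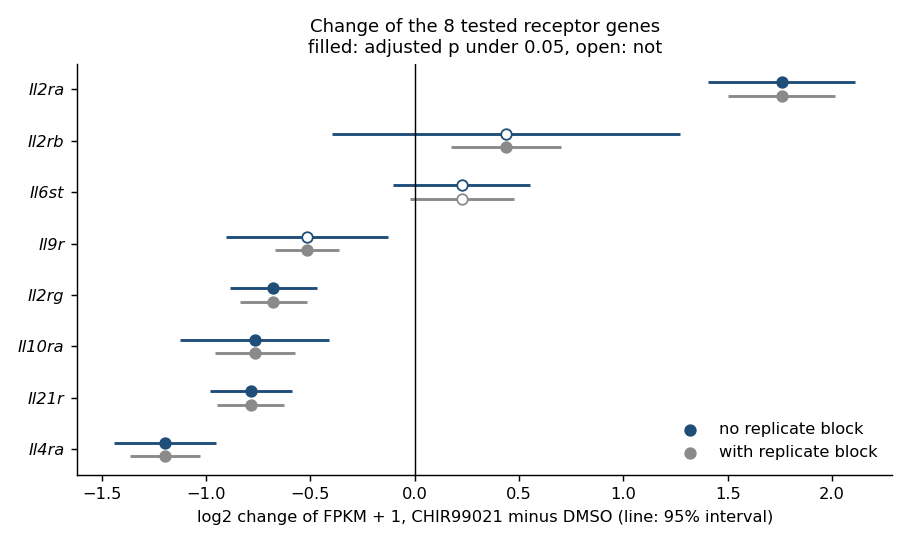
Log2 change of FPKM + 1 (horizontal, CHIR99021 minus DMSO) of the 8 tested receptor genes, as points with 95% intervals, without (blue) and with (grey) the replicate number as a block; filled points have a limma adjusted p under 0.05. Il2ra stands at 1.76 and Il4ra at -1.20, and Il2rb and Il9r are filled only with the block.

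FPKM are scaled for length, so levels were compared between genes. Other differences between genes, such as the overlapping gene models within the Il2rg and Il4ra spans, were not corrected for. In DMSO the order of mean FPKM was Il21r, Il2rg, Il9r, Il4ra, Il10ra, Il2rb, Il6st, Il2ra, Il13ra1 and Il7r. The library ranges of neighbours in that order overlapped for Il9r and Il4ra and for Il10ra and Il2rb only. With CHIR99021 the first 4 kept their places, followed by Il2rb, Il2ra, Il10ra, Il6st, Il13ra1 and Il7r. There the ranges overlapped for Il2rb and Il2ra, for Il2ra and Il10ra, and for Il13ra1 and Il7r. Il2ra thus moved from eighth to sixth place, above Il6st and level with Il10ra within the spread.

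Ratios between chains within a library do not depend on a scaling factor shared by all its genes. Il4ra stood at 23.1%, 22.7% and 23.2% of the Il2rg level in the DMSO libraries and at 16.6%, 14.7% and 15.6% in the CHIR99021 libraries. The IL-4 binding chain was lower relative to its partner in all 3 treated libraries, with a difference of -0.56 in the mean log2 ratio. Il21r stood at 131%, 138% and 122% of Il2rg with DMSO and at 119%, 129% and 115% with CHIR99021. These ranges overlapped, with a difference of -0.11 in the mean log2 ratio. The Il4ra level was 17.6%, 16.4% and 19.0% of that of Il21r with DMSO and 13.9%, 11.4% and 13.5% with CHIR99021, a difference of -0.45 on the log2 scale with no overlap.

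Il2rb stood at 2.41%, 4.69% and 7.09% of Il2rg with DMSO and at 7.23%, 8.85% and 14.5% with CHIR99021. The groups barely separated, and the difference in the mean log2 ratio was 1.18, or 0.76 without DMSO replicate 1. In exact two-sided permutation tests over the 6 libraries, p was 0.1 for the ratios of Il4ra to Il2rg, Il2rb to Il2rg and Il4ra to Il21r and 0.2 for that of Il21r to Il2rg. A p of 0.1 is the smallest that 3 against 3 libraries can give, and adjusted over the 4 ratios these were 0.133 and 0.2, so none can pass 0.05.

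**Figure D3:**
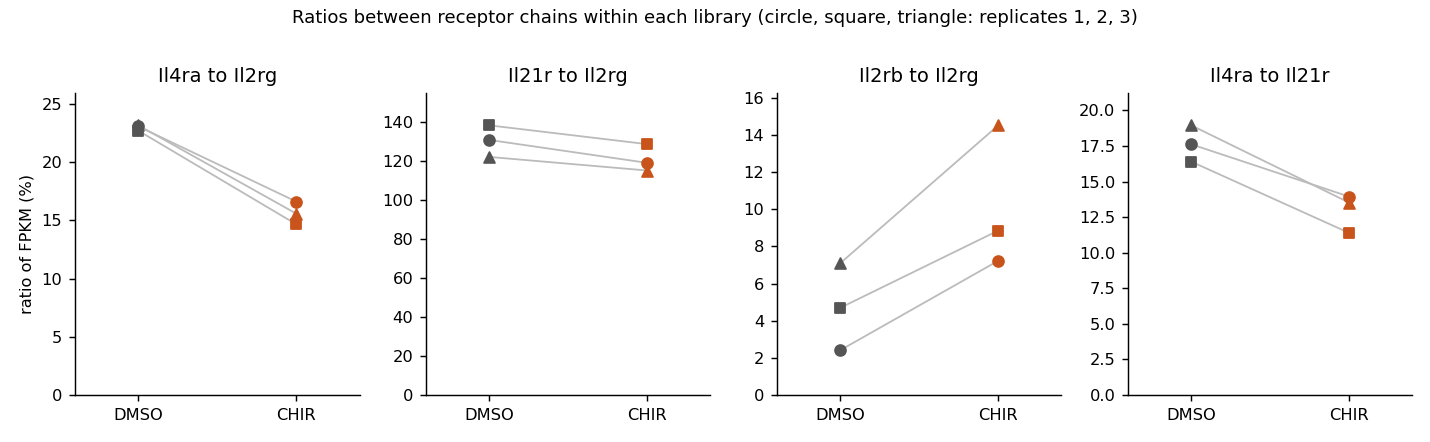
FPKM of a receptor chain as a percentage of another chain's FPKM in the same library (vertical, from 0), for DMSO and CHIR99021 libraries of replicates 1, 2 and 3, joined by number. Il4ra relative to Il2rg is about 23% in the DMSO libraries and at most 16.6% with CHIR99021, and the ratio of Il21r to Il2rg overlaps between groups.

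The kinases that bind these receptors also differed. Of the 4 JAK kinase genes, 2 were called lower and 2 were not called, beside 13.3% lower among all tested genes; the block gave 3 lower and 1 higher, beside 24.4% and 18.4%. Jak1, which binds the cytokine-specific chains of this family, had 84.1, 83.3 and 91.0 FPKM with DMSO and 40.8, 40.9 and 41.3 FPKM with CHIR99021 (log2 change -1.05 ± 0.07 SE, limma adjusted p = 0.000431). Jak3, the partner of the common gamma chain, fell from 55.8 ± 2.93 to 40.1 ± 1.03 FPKM (limma adjusted p = 0.00577). Jak1 and Jak3 were both lower in every treated library than in any control. Jak2 had 5.39 ± 0.897 and 7.79 ± 0.815 FPKM and was not called (limma adjusted p = 0.0539), but it was called higher with the block (0.0212), after upper-quartile (0.0376) or quantile scaling (0.0246) and without DMSO replicate 2 (0.0341). Tyk2 had 15.0 ± 1.06 and 12.2 ± 1.73 FPKM (limma adjusted p = 0.139, or 0.0286 with the block).

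Of the 7 STAT genes, 4 were called lower and 3 were not called, beside 13.3% of all tested genes called lower. Under the replicate block 6 were called lower, beside 24.4% of all tested genes. Stat6, the factor of IL-4 signalling, fell from 41.0 ± 1.42 to 26.2 ± 0.317 FPKM (log2 change -0.63, limma adjusted p = 0.00163). Stat3, the main factor of IL-21 signalling, fell from 63.2 ± 2.30 to 47.8 ± 3.21 FPKM (log2 change -0.40, limma adjusted p = 0.0137). Stat5b, a factor of IL-2 signalling, fell from 23.1 ± 1.39 to 17.7 ± 0.535 FPKM (limma adjusted p = 0.0222). Stat2 and Stat5a had log2 changes of -0.34 and -0.28 and were not called, although both were with the block (limma adjusted p = 0.0123 and 0.0361). The call of Stat3 was lost without DMSO replicate 3 (0.0536) or CHIR99021 replicate 3 (0.0509), and that of Stat5b without DMSO replicate 3 (0.0818) or CHIR99021 replicate 1, 2 or 3 (0.0699, 0.0634 and 0.0708). Without DMSO replicate 3 or CHIR99021 replicate 3, 2 STAT genes were called lower.

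Among 26 other cytokine receptor genes, 13 were tested, and 4 were called lower and 9 were not called (median log2 change -0.14), beside 13.3% lower among all tested genes. The replicate block gave 6 lower and 2 higher, beside 24.4% and 18.4%, and with upper-quartile or quantile scaling alone 1 was called higher. The interferon gamma receptor genes Ifngr1 and Ifngr2 were both among those that fell. Ifngr1 had 35.6, 37.9 and 41.9 FPKM with DMSO and 17.2, 18.0 and 17.3 FPKM with CHIR99021 (limma adjusted p = 0.000512), and Ifngr2 fell from 14.9 ± 1.83 to 8.54 ± 1.28 FPKM (0.00818). The others were Crlf2, a chain of the TSLP receptor (32.4 ± 4.30 to 19.5 ± 2.58 FPKM, limma adjusted p = 0.00888), and Il27ra, the specific chain of the IL-27 receptor (5.65 ± 0.137 to 3.02 ± 0.659 FPKM, 0.0134). Genes called with the block but not without it were Il12rb1 and Il5ra, higher, and Il10rb and Csf2ra, lower (limma adjusted p = 0.0177, 0.0412, 0.0133 and 0.0415). Il10rb, the partner of Il10ra, had 10.6 ± 0.235 and 7.45 ± 1.66 FPKM. Il15ra, which presents IL-15 to Il2rb and Il2rg, had 2.30 ± 0.251 and 3.12 ± 0.599 FPKM and was not called (limma adjusted p = 0.204). The type I interferon receptor gene Ifnar1 had 6.38 ± 0.179 and 6.26 ± 0.612 FPKM (0.905).

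Of 17 tested inhibitors and phosphatases of these pathways, 6 were called lower and 1 higher (median log2 change -0.14), beside 13.3% lower and 8.13% higher among all tested genes. With the replicate block 7 were called lower, Pias1 being added (limma adjusted p = 0.0163), beside 24.4% of all tested genes. The gene that rose was Socs2, a feedback inhibitor induced by STAT5, at 13.8, 16.3 and 15.3 FPKM with DMSO and 26.8, 26.5 and 31.6 FPKM with CHIR99021 (limma adjusted p = 0.00186). Those that fell included Ptprc, which encodes CD45 (182 ± 0.713 to 107 ± 4.25 FPKM, limma adjusted p = 0.00062), and the phosphatase gene Ptpn1 (66.9 ± 2.65 to 40.7 ± 1.71 FPKM, 0.00115). The adaptor gene Sh2b3, which encodes the JAK inhibitor LNK, fell from 33.5 ± 4.07 to 15.7 ± 2.68 FPKM (limma adjusted p = 0.00242). Cish, another STAT5 target, had 2.95 ± 0.267 and 2.75 ± 0.979 FPKM (limma adjusted p = 0.771), so the 2 STAT5 feedback genes had unlike values.

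Of 17 tested target genes of these STATs, 9 were called lower and 2 higher (median log2 change -0.56), beside 13.3% and 8.13% of all tested genes. With the replicate block 11 were called lower and 3 higher, beside 24.4% and 18.4%; the genes added were Bcl6 and Bcl2, lower, and Pim2, higher (limma adjusted p = 0.00307, 0.0131 and 0.00819). The IL-4 induced genes Il4i1 and Fcer2a had log2 changes of -2.56 and -2.24, and Ccl22 and Junb -1.48 and -0.90 (limma adjusted p = 5.21e-05 to 0.000823). The genes that rose without the block were Socs2 and Prdm1 (log2 change 1.25, limma adjusted p = 0.00347), and Prdm1, a target of IL-21 signalling, encodes the plasma cell regulator BLIMP1. This list shares Socs2 and 3 further genes with the inhibitors and Osm with the cytokines, so the counts of these lists are not separate.

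**Figure D4:**
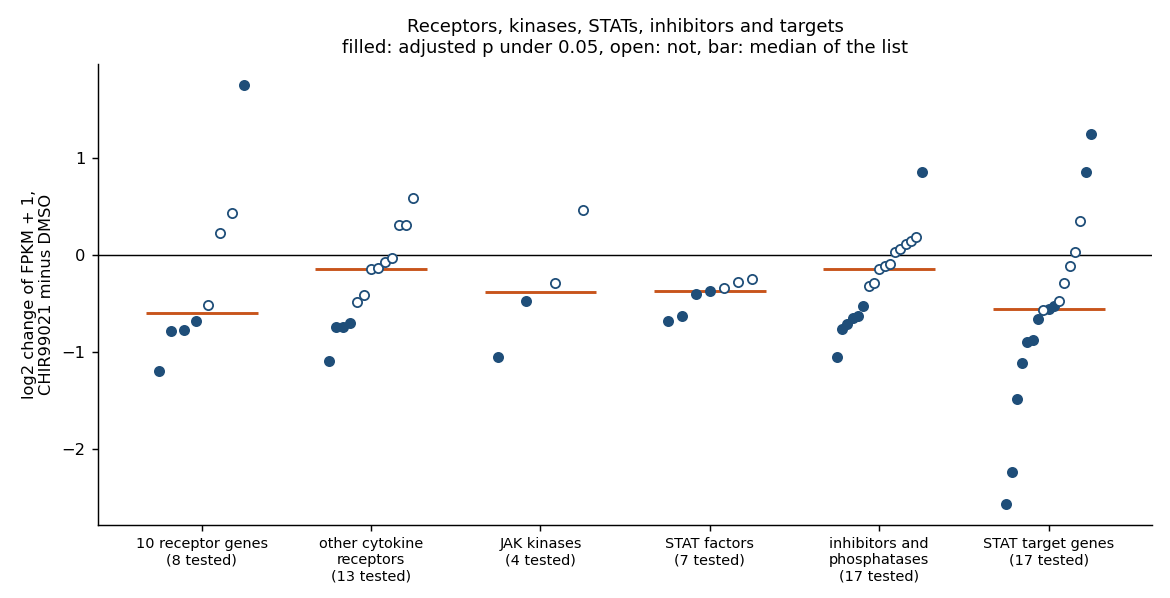
Log2 change of FPKM + 1 (vertical, CHIR99021 minus DMSO) of each tested gene in the receptor genes and 5 lists of their pathway; filled points have a limma adjusted p under 0.05 and the bar is the list's median. The median is -0.60 for the receptor genes, -0.14 for other cytokine receptors, -0.38 for JAK kinases and -0.37 for STAT factors, and Il2ra is the highest point.

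The cytokines themselves were scarce. Of 14 ligand genes, 1 was tested: Osm, whose product oncostatin M signals through Il6st, fell from 8.45 ± 1.03 to 3.46 ± 1.33 FPKM (limma adjusted p = 0.00943). Il2, Il4, Il9 and Il13 were listed at 0 in all 6 libraries. Il21 was listed at 0 in the 3 DMSO libraries and had 0.645, 0.821 and 2.06 FPKM with CHIR99021, and Il10 had 0.173, 0.116 and 0.133 FPKM with DMSO and 0.904, 0.764 and 1.88 FPKM with CHIR99021. Both were higher in every treated library. Without the limit on level both were called (limma adjusted p = 0.0352 and 0.0321), in a test that called 1711 of 16287 genes, 627 of them higher. Il21 entered that test only through its CHIR99021 values, so its call adds nothing to those values. Il15, Il27 and Lif were lower in every treated library and were not called in that test (limma adjusted p = 0.0904, 0.0667 and 0.0857). Il15 had 0.702, 0.361 and 0.139 FPKM and Il27 0.318, 1.24 and 0.480 FPKM with DMSO, and both were listed at 0 in the 3 CHIR99021 libraries; Lif had 1.13 ± 0.379 and 0.472 ± 0.141 FPKM.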

How the data were processed

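Germinal centre B cells made in culture were compared between 3 CHIR99021 and 3 DMSO libraries, grouped by title. The submitters' processing notes name the mm10 build, Cufflinks 2.2.1, TopHat2 2.1.1 and cutadapt 1.12; per the labels' protocols, libraries were made with a stranded mRNA kit. No annotation or strand setting is named there. The authors deposited gene FPKM with confidence limits, 1 table per library. FPKM are not counts, so sequencing depth is unknown; limits read as 2 Poisson SDs gave whole fragments (within 0.05) for 9 of 10 receptor values under 50 fragments. Summed FPKM per library ran from 527290 to 617449.

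Values were tested as log2(FPKM + 1) for the 10096 genes with a mean of at least 1 FPKM, using limma 3.58.1 in R 4.3.3 (eBayes with a variance trend, two-sided, Benjamini-Hochberg over all tested genes, checked on simulated data). Python 3.11.15 and matplotlib 3.10.9 made ratios and figures. At most 0.228% of the tested values were identical between any pair of libraries. As a check of pairing, deviations from group means had correlations, across genes, of 0.53, 0.49 and 0.52 between same-numbered libraries and -0.35 to -0.14 between others. Deviations within a group cancel for each gene, so the negative values follow largely from the positive ones. Libraries of the same number thus varied together, but the main fit and the permutation tests do not use the number. Calls, intervals and adjusted p are from that unblocked fit unless the block is named. Blocked values are given where they change the call of a named gene or a list's count. The receptor genes and all lists were chosen with earlier results of these data known. Named genes are the receptor genes, all JAK and STAT genes (some are not reported here) and up to 4 called genes of each other list with the smallest adjusted p; Il12rb1, Il5ra, Il10rb, Csf2ra, Il15ra, Ifnar1, Cish, Pias1, Bcl2, Pim2, Prdm1, Il10, Il21, Il15, Il27, Lif and the markers named singly were added after their values were seen. Alternatives were the pseudocount, the limit on level, scaling, the variance trend, the block and leaving out each library. Of 138 list genes, 1 was found under an older symbol.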

Additional observations from a re-analysis of the deposited data

How the results depend on the processing

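Of the receptor genes, Il2ra, Il4ra, Il21r and Il2rg kept their direction and their call under each alternative in which they were tested, with limma adjusted p of at most 0.0174; with a limit at a mean of 5 FPKM, Il2ra was not tested and 0 receptor genes were called higher. The replicate block raised the number called higher to 2, alone or with quantile or upper-quartile scaling (combinations chosen after seeing the data), and the number of all genes called from 2164 to 4321, 4457 and 4500. The block called Il2rb and Il9r and changed no other receptor call. Leaving out a library gave 1061 to 1983 called genes (1061 without CHIR99021 replicate 3, 1310 without DMSO replicate 3 and 1410 without CHIR99021 replicate 2), 1 receptor gene higher and 3 to 5 lower. Higher calls made up 53.4% and 51.5% of calls with the block and quantile or upper-quartile scaling. With a pseudocount of 5, the log2 ratio differences were -0.39 for Il4ra to Il2rg and -0.28 for Il4ra to Il21r, against -0.56 and -0.45 without one, and the changes of Il27ra and Osm were -0.41 and -0.68 against -0.74 and -1.12 with a pseudocount of 1, since a pseudocount shrinks ratios. Leaving out a library gave -0.60 to -0.51 for Il4ra to Il2rg, -0.15 to -0.07 for Il21r to Il2rg, 0.76 to 1.54 for Il2rb to Il2rg and -0.51 to -0.36 for Il4ra to Il21r. With 3 balanced pairs the replicate block cannot move a difference of means, so the 4 ratio differences, such as -0.56 for Il4ra to Il2rg, are the same with it by construction. Over all named genes that were tested, 484 of the alternative values stayed on their side of the threshold, 18 gained a call and 7 lost it. None reversed, where a change of sign counted only if the gene was called in either fit. The limit on level, the variance trend and the block alone cannot change an estimate, so no reversal was possible under them. Depth limits Il7r and Il13ra1, which rest on at most 13 fragments per library.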
